A study of Caenorhabditis elegans with 2 samples.

Results

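The cytosolic ribosome of Caenorhabditis elegans is built from proteins encoded by the rpl and rla genes (large subunit) and the rps genes (small subunit), and these genes were read here for where the tagged nuclear hormone receptor NHR-77 was recovered on DNA. The members were chosen by name alone, as protein-coding genes whose symbol begins with rpl-, rps- or rla-. There were 81 of them among 19973 protein-coding genes: 47 rpl, 3 rla and 31 rps genes, which gives 50 for the large and 31 for the small subunit. The data are TF ChIP-seq peak lists from whole L1 larvae of mixed sex, with 1 group and 2 biological replicates. The larvae were of strain OP353, which carries unc-119(tm4063) and the insertion wgIs353 with eGFP-tagged nhr-77. All samples carry both alleles, only 1 strain was used, and no untagged strain or second factor was analysed here, so whether a peak is particular to NHR-77 was not tested. In whole larvae, strong recovery from few cells cannot be told apart from weak recovery from many.

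Ribosomal proteins assemble with ribosomal RNA in nearly fixed proportions, and their genes are among the most actively transcribed in growing cells. Nuclear hormone receptors are DNA-binding transcription factors, many of them regulated by small lipophilic ligands. In C. elegans many mRNAs are trans-spliced to a short leader, and some genes lie close together in the same direction in operons that are transcribed from the promoter of the first gene. For trans-spliced genes the annotated 5' end can lie downstream of the point where transcription begins.

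A gene is called bound when a peak summit fell in its promoter window, defined as the 1000 bp before and the 250 bp after its 5' end (ce11, Ensembl release 115). Negative distances lie upstream. Signal is the authors' own value for a peak and ranks peaks within a list only. The reproducible set, which the authors chose by agreement between replicates, holds 2285 peaks. The relaxed lists, which include background, hold 13500 peaks for the pooled replicates, 21272 for replicate 1 and 24201 for replicate 2. The 2285 strongest pooled peaks reached as many genes as the reproducible set (1717, of which 64 were members). Every bound member had the same signal and rank in both. A member outside the set had a pooled signal below 58.7 or no pooled summit, which does not by itself mean that the replicates disagreed. Depth is unknown because the lists hold no counts of reads, and the intervals given with shares cover counting error over genes only. Genes are not replicates, so shares are compared with those of all genes as a description, without a test.

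The sequence at the summits of these genes is shown first. Each line gives 60 bp on either side of the strongest summit in the pooled list, 5' to 3' on the strand of the gene, from the WBcel235 (ce11) RefSeq assembly. The first 4 are the strongest ribosomal protein peaks in which one of the words described further on falls wholly within these 121 bp. The next 3 hold a pair of those words, and rps-8, the strongest member outside the reproducible set, does too. Capitals mark GGCCTAAA, GCGAGACC and CGATTTAC, or their reverse complements TTTAGGCC, GGTCTCGC and GTAAATCG.
rpl-3 (plus strand, chrIII:3867525-3867645): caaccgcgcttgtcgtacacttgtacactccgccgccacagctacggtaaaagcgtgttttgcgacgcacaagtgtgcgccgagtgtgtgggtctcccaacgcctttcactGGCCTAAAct
rpl-20 (minus strand, chrIV:4750003-4750123): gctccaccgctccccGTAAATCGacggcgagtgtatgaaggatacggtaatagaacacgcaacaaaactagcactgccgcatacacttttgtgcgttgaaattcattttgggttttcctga
rps-12 (plus strand, chrIII:5679084-5679204): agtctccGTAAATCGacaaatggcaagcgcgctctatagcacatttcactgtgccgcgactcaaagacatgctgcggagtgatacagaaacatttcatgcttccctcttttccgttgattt
rpl-43 (plus strand, chrII:14154494-14154614): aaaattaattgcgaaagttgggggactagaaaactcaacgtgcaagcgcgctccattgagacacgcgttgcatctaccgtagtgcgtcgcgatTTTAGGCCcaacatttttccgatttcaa
rpl-21 (minus strand, chrIII:8130474-8130594): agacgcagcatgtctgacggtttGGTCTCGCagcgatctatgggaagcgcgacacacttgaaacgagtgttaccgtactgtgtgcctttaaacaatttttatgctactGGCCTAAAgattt
rps-4 (minus strand, chrIV:7084881-7085001): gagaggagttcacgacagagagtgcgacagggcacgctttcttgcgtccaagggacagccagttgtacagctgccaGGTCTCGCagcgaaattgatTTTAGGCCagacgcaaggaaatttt
rps-9 (minus strand, chrII:11126536-11126656): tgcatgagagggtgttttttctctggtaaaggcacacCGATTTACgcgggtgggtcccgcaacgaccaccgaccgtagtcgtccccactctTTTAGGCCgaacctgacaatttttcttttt
rps-8 (minus strand, chrIV:7314058-7314178): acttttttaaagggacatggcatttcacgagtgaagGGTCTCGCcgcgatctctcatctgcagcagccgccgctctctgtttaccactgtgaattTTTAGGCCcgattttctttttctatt

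Most ribosomal protein genes had a summit in the promoter. In the reproducible set this was so for 64 of 81 (79.0%, exact 95% interval 68.5 to 87.3%), against 8.6% of all protein-coding genes. The subunits gave similar shares, with 38 of 50 large-subunit genes (76.0%, 61.8 to 86.9%) and 26 of 31 small-subunit genes (83.9%, 66.3 to 94.5%), and these intervals overlap widely. The 2285 strongest peaks of replicate 1 reached 65 members (39 large, 26 small), against 8.57% of all genes. The same number of peaks from replicate 2 also reached 65 (38 large, 27 small), against 8.19%. In the relaxed lists the pooled replicates reached 77 members, with 26.5% of all genes. Replicate 1 reached 78, with 34.3% of all genes, and replicate 2 reached 74, with 36.9%. All 31 small-subunit genes had a summit in the pooled list.

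The members lay high in the list. The 64 bound members had 61 distinct strongest peaks, since 3 peaks each served a pair of members. These peaks were 2.67% of the reproducible set, but 4 of its 10 strongest, 13 of its 100 strongest and 36 of its 500 strongest peaks. The median rank of a bound member's peak was 374.5 of 2285, against 1032 for all bound genes. In the strongest peaks of the replicates the median ranks were 399 (all genes 1018) and 489 (all genes 1000). By list length, the 500 strongest pooled peaks already reached 38 members (46.9%), when they had reached 2.33% of all genes, and the 1000 strongest reached 57 (70.4%, all genes 4.2%). The next gains were small, with 70 members at 4000 peaks (all genes 12.9%) and 75 at 8000 (all genes 19.5%).

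**Figure D1:**
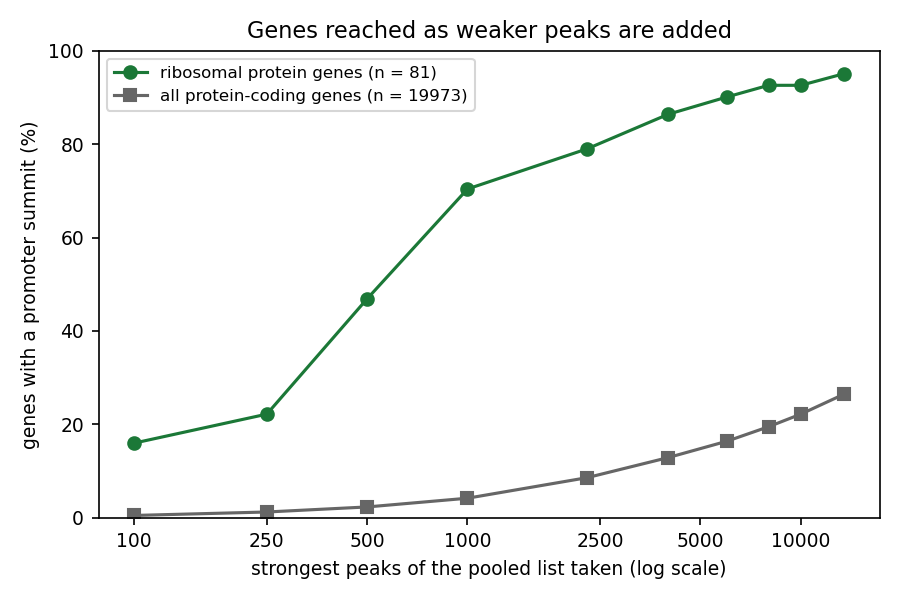
Share of ribosomal protein genes (green) and of all protein-coding genes (grey) with a promoter summit, in percent, against the number of strongest pooled peaks taken (log scale). The members reach 70.4% at 1000 peaks and 95.1% in the whole list, while all genes reach 26.5%.

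Large-subunit genes held the highest signals. The peak at III:3867430-3867720 upstream of rpl-3 (WBGene00004414), whose protein lies close to the peptidyl transferase centre, ranked first in the reproducible set (signal 809) and also first in each replicate (443 and 365). Its summit lay at -269 bp in the pooled data, at -287 bp in replicate 1 and at -269 bp in replicate 2. The peak of rpl-35 (III:7854551-7854817, summit at -437 bp) ranked 7th, with signal 607, and 8th and 6th in the replicates (314 and 286). Those of rpl-20 (IV:4749948-4750209, -285 bp, signal 560.4) and rpl-15 (IV:654795-655041, -350 bp, 548) followed at ranks 9 and 10. In the replicates rpl-20 ranked 7th and 16th (319.6 and 234), and rpl-15 ranked 11th in both (295 and 248). These 4 genes were thus within the first 16 peaks of both replicates.

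The strongest small-subunit gene was rps-12 (III:5679025-5679263, -154 bp), at rank 13 with signal 512, and at ranks 16 and 13 in the replicates (282 and 241). The rpl-43 peak (II:14154432-14154662, signal 501) lay farthest from its gene of all bound members, at -740 bp, with replicate summits at -739 and -732 bp and replicate signals of 260.2 and 239.5. Ranks 31 and 33 belonged to rps-19 (signal 409, replicates 236 and 179) and to rpl-12 (403, replicates 244 and 158), whose protein sits at the base of the ribosomal stalk. The rpl-12 summit was the nearest to its member's start among the bound members, at -45 bp (-29 and -45 bp in the replicates). Among these strongest members, the summits of rpl-20, rps-12, rpl-43 and rps-19 lay nearer to the start of a gene that is not a member. These genes were Y17G9B.5 (-177 bp), ska-3 (-139 bp), Y48B6A.1 (-181 bp) and hsr-9 (-177 bp). The rpl-15 and rpl-12 peaks also lay in the windows of K11H12.8 (-464 bp) and lin-54 (-348 bp). Peaks so shared cannot be given to the ribosomal protein gene alone.

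Bound members formed a continuous range below these. Their signals ran from 65.3 to 809 with a median of 164, against 98.3 for all bound genes. The median was 159 for the large subunit and 168 for the small subunit, with middle ranges of 121 to 203 and 112 to 201. The lowest were rpl-2 (65.3, replicates 37.8 and 22.6), rpl-30 (68.8, replicates 29.9 and 36.3) and rps-6 (69.4, replicates 44.4 and 26.7), whose protein is the S6 target of the TOR pathway kinase. They stood above 58.7, the lowest signal in the set. Just outside lay rps-8 (56.1 in the pooled list), rps-7 (54.6) and rpl-41.1 (54.2), so the limit of the set cuts through a row of closely spaced values.

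**Figure D2:**
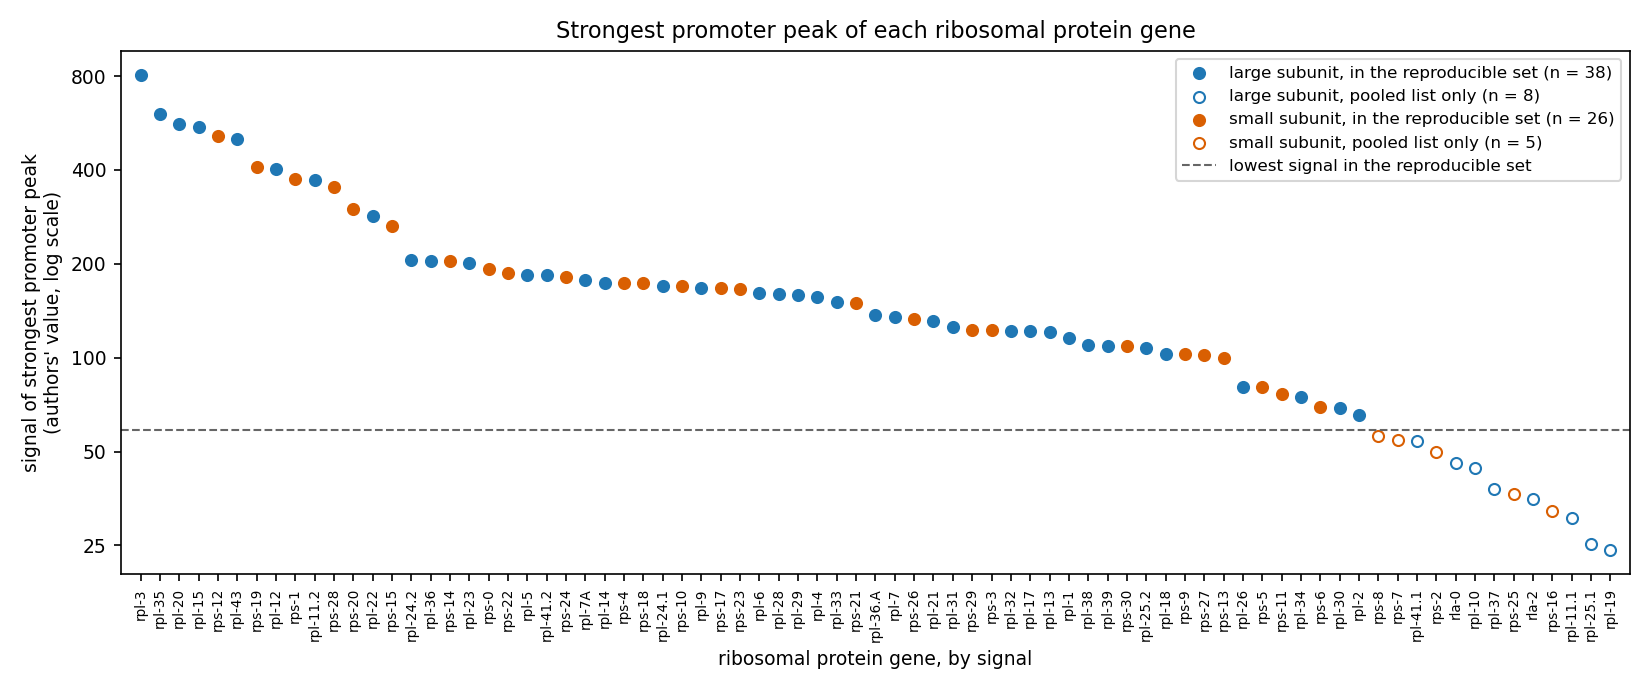
Signal of the strongest promoter peak in the pooled list (authors' value, log scale) for the 77 ribosomal protein genes that have one, sorted by signal. Filled points are in the reproducible set (38 large-subunit genes in blue, 26 small-subunit genes in orange), open points (8 and 5) are not, and the dashed line is the lowest signal of the set, 58.7. Large-subunit genes run from 24.2 to 809 and small-subunit genes from 32.3 to 512.

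The replicates ordered the members alike. Across the 61 distinct peaks the signals of replicates 1 and 2 had a Spearman rho of 0.897, as a description, since the peaks were called against a shared control and chosen from these replicates. Summits moved by a median of 19 bp between replicates (all bound genes 23 bp) and by at most 96 bp, and for 54 of 64 members by at most 50 bp. Of the 69 members reached by either replicate's 2285 strongest peaks, 61 (88.4%) were reached by both, against 64.2% of all genes so reached. The members' peaks lay higher in these lists than those of all genes, and peaks of like rank were not compared. Among the bound members the replicates differed most in rank for rpl-2 (1925 in replicate 1, 3514 in replicate 2), rpl-30 (2651 and 1446) and rps-13 (1781 and 639). The first of these ranked higher in replicate 1 and the others in replicate 2. By the ratio of ranks, the largest changes were at rpl-32 (1244 and 363), rps-13 and rpl-17 (548 and 1269).

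**Figure D3:**
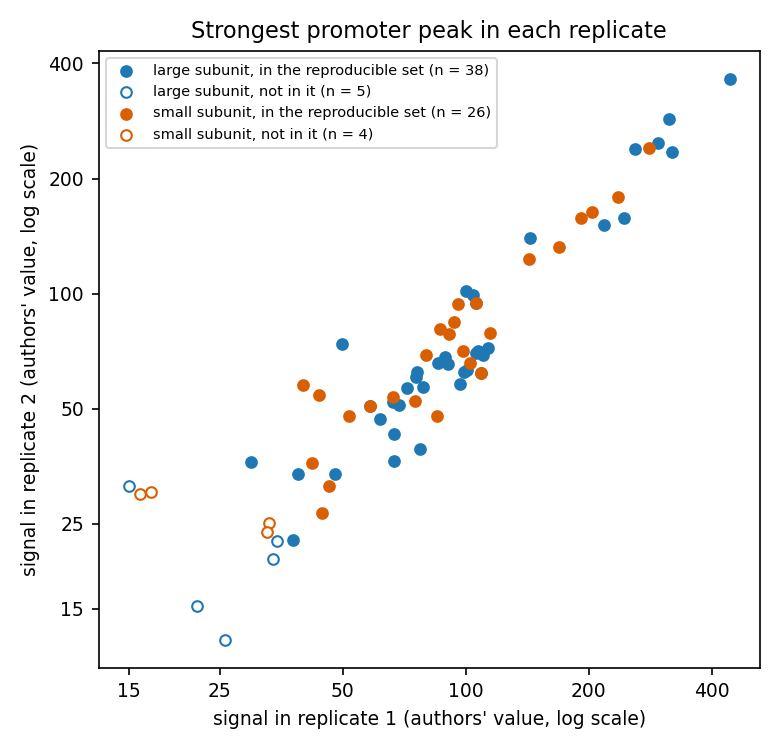
Signal of the strongest promoter peak in replicate 1 (x axis) and replicate 2 (y axis), both the authors' values on log scales, for the 73 ribosomal protein genes with a summit in both relaxed lists. Blue marks large-subunit and orange small-subunit genes, and open points are genes outside the reproducible set. Points run along a diagonal, with rpl-3 at the upper end (443 and 365).

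Summits of the members lay in a narrow band upstream. The median distance was -293 bp (middle range -373 to -239 bp), against -242 bp for all bound genes (-410 to -132 bp). The value was -293 bp for the large and -290.5 bp for the small subunit, and -293 and -283 bp with the strongest peaks of replicates 1 and 2. Between 450 and 150 bp upstream lay 58 of the 64 member summits (90.6%), against 49.5% for all bound genes. This band was chosen after the distances were seen. No member summit lay downstream of its start, where 4.78% of all bound genes had theirs. By annotation 61 of the 64 summits were intergenic. The others lay in features of other genes, since each was upstream of its member's start. The rpl-30 and rps-18 summits lay in a 5' UTR, 24 bp downstream of the pab-1 start and 130 bp downstream of the sec-61.A start. The rpl-24.2 summit lay in an intron. Only rpl-1 had more than 1 reproducible summit in its window. A non-coding RNA gene began within 100 bp of the summit for 14 bound members (21.9%), among them rps-0 (5 bp) and rps-1 (15 bp), against 12.1% of all bound genes.

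**Figure D4:**
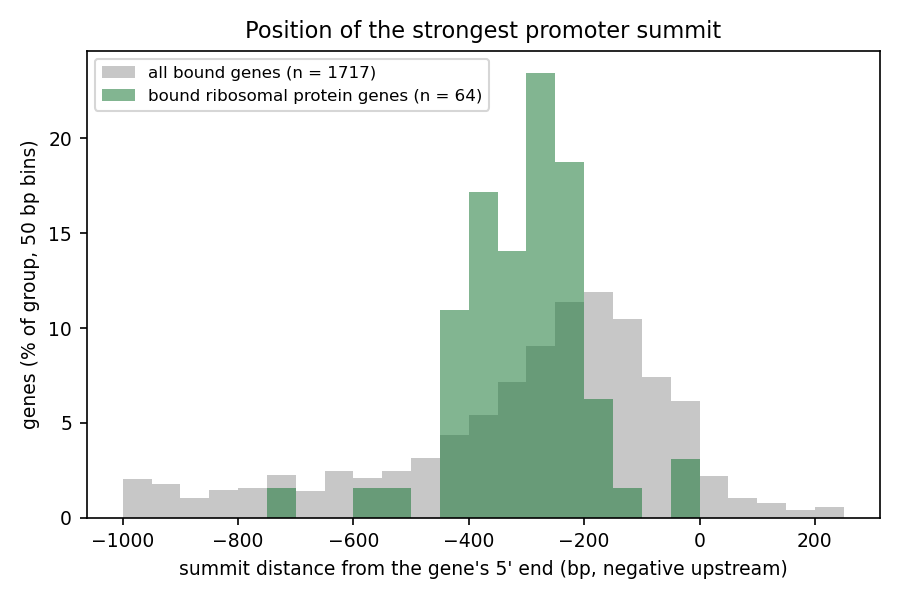
Distance of the strongest promoter summit from the 5' end (bp, negative upstream, 50 bp bins), as percent of the 64 bound ribosomal protein genes (green) and of all 1717 bound genes (grey). The green distribution is centred on -293 bp and holds no value downstream of the start.

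Many members share their upstream region with a gene on the other strand. The nearest upstream protein-coding gene was divergent and within 1000 bp for 48 of 81 members (59.3%, 47.8 to 70.1%), against 17.2% of all protein-coding genes. Of these 48 members 44 were bound (91.7%, 80.0 to 97.7%), against 21.7% of all genes so arranged. Members with a same-strand neighbour more than 200 bp away were bound in 15 of 21 cases (71.4%, 47.8 to 88.7%), against 5.36% of all such genes. In both arrangements the share of members thus lay far above that of all genes in the same arrangement. For 47 of the 64 bound members (73.4%) the strongest peak also lay in another gene's promoter window, against 52.8% of all bound genes. Such a peak cannot be given to a single gene. The 17 members with a peak of their own had a median signal of 167, and the 47 that share one had 159.5.

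In 3 cases a pair of members shared a peak. These were rpl-36 with rps-14 (signal 204, at -386 and -277 bp, also in the window of ndab-2), rps-10 with rpl-24.1 (169.96, at -378 and -232 bp) and rpl-39 with rps-30 (109, at -214 and -285 bp). Each pair joins a large-subunit and a small-subunit gene. The other partners were 42 genes of many kinds. They include lpd-7, a ribosome biogenesis factor (with rpl-9), mrpl-49, for a mitochondrial ribosomal protein (rpl-28), pab-1, for poly(A)-binding protein (rpl-30), sec-61.A, for a translocon subunit (rps-18), and nuo-1, for a subunit of respiratory complex I (rpl-36.A).

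The 5 members with a same-strand neighbour within 200 bp upstream had no summit of their own in the reproducible set. They were rla-1, rpl-16, rpl-25.1, rpl-27 and rps-16, and the gap to the upstream gene was 97 bp for rpl-25.1, 105 bp for rla-1 and rpl-16 and 109 bp for rps-16. In all 5 cases the first gene of the closely spaced run had a summit in its promoter, against 24.2% over the 1876 genes in such a position. For rps-16 this first gene was fib-1, which encodes the nucleolar methyltransferase fibrillarin (signal 216, -84 bp). For rpl-25.1 it was glit-1 (238, -232 bp), for rpl-16 lias-1, lipoic acid synthase (125, -245 bp), for rla-1 Y37E3.8 (117, -287 bp) and for rpl-27 C53H9.2 (74.96, -132 bp). Of all 1876 genes with such a close neighbour, 4.21% had a summit of their own, so 0 of 5 is not below the background in any measurable way (interval 0 to 52.2%). The 200 bp limit was set after the gaps were seen. Whether these genes share a transcript with the upstream gene was not tested.

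**Figure D5:**
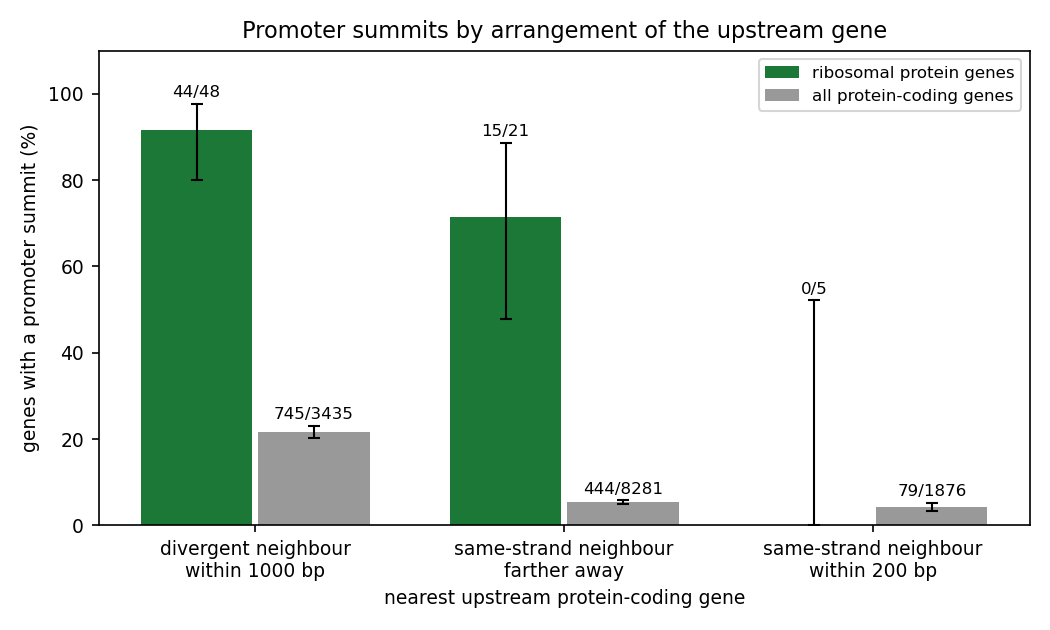
Share of genes with a promoter summit (percent, bars from 0, with exact 95% intervals and counts) by the position of the nearest upstream protein-coding gene, for ribosomal protein genes (green) and all protein-coding genes (grey). Members reach 91.7% with a close divergent neighbour, 71.4% with a more distant same-strand neighbour and 0 of 5 with a same-strand neighbour within 200 bp.

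Of the 17 members without a reproducible summit, 13 had a weaker one in the pooled list and 9 had one in both replicate lists. Over all protein-coding genes, the pooled list reached 26.5% and the lists of replicates 1 and 2 reached 34.3% and 36.9%. The share of all genes with a summit in both replicate lists is not given here. The stalk proteins were all among the 17. The rla-0 gene, for the P0 protein that carries the stalk, had a pooled peak of signal 46.0 at -212 bp, but ranked 10081 in replicate 1 and 1882 in replicate 2. The rla-2 gene had a pooled peak of 35.1 at -237 bp and a summit in replicate 1 only. The rla-1 gene had only a weak summit in replicate 1 (16.8). The rps-2 peak, at ranks 7483 and 2003, likewise ranked higher in replicate 2, and the rpl-41.1 peak (2230 and 4604) in replicate 1. For rps-25 (8622 and 2055) the strongest summits stood at -986 and -338 bp, so the ranks do not compare 1 peak. Replicate 1 placed rpl-10 at -405 bp and replicate 2 at -208 bp (ranks 2169 and 3534), so these too were different summits. The same holds for rpl-37 (-106 and -276 bp) and rpl-25.1 (131 and -287 bp). The remaining pooled signals were those of rpl-37 (38.0), rps-16 (32.3), rpl-11.1 (30.5), rpl-25.1 (25.3) and rpl-19 (24.2).

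A few members had next to nothing. For rpl-16 and rpl-42 no list held a summit in the window, and rpl-27 had only a weak one in replicate 1 (12.5). The nearest reproducible summit lay 3593 bp downstream of the rpl-42 start, and at -1742 bp from rpl-16. For rpl-19 it lay at 297 bp downstream, just beyond the window. For rps-7 it lay at -32791 bp. The start of rpl-37, like that of rpl-24.2, lies inside another gene.

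Members whose names differ only in the digit after the point were taken as pairs, by name alone. How alike the genes of a pair are in sequence was not examined. In 3 of the 4 pairs the same gene ranked higher in both replicates or was the only one with a summit in both. RPL-11 and RPL-5 join the 5S ribosomal RNA in a particle of the large subunit. The rpl-11.2 gene had a signal of 372 at -372 bp (ranks 36 and 57 in the replicates), whereas rpl-11.1 had 30.5 in the pooled list and no summit in replicate 2. Its partner rpl-5 had 184, at ranks 248 and 438. The rpl-25.2 gene had 108 (ranks 862 and 943), against 25.3 for rpl-25.1 (ranks 3304 and 17810, with summits at 131 and -287 bp). The rpl-41.2 gene had 184 (ranks 233 and 389), against 54.2 for rpl-41.1 (ranks 2230 and 4604). The rpl-41.2 summit lies between these neighbouring genes, 863 bp downstream of the rpl-41.1 start. For rpl-24.2 and rpl-24.1 both signals were high, at 206 and 170 (ranks 294 and 173 against 253 and 554), and their order reversed between the replicates. Where the genes of a pair are near-identical, reads may be split or dropped in mapping. How the authors treated such reads is not given in the sources used here.

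Other genes of the ribosome and its assembly, listed from general knowledge, were bound less uniformly. The ribosomal genes with other names were all bound: ubl-1, which encodes a ubiquitin fusion to a small-subunit protein (signal 218, -208 bp), ubq-2, with the fusion to a large-subunit protein (149, -497 bp), and rack-1, a scaffold protein of the small subunit (69.3, -257 bp). Nucleolar and assembly factors were bound at 13 of 29 genes (44.8%, 26.4 to 64.3%), among them larp-1, a regulator of ribosomal protein mRNAs in mammals (349), fib-1 (216), lpd-7 (167, the rpl-9 peak) and rbd-1 (160). Of these, only the lpd-7 peak was one of the members' own. Among the 13, only nol-56 and pro-1 had a peak in no other gene's promoter window. The larp-1, rbd-1 and ubq-2 summits lay nearer to the starts of wip-1 (-353 bp), T23F6.3 (-49 bp) and frg-1 (-142 bp). The fib-1 peak also lay in the window of mut-15 (-236 bp), though nearer to fib-1. Peaks so shared cannot be given to a single gene. The 4 RNA polymerase I genes, rpoa-1, rpoa-2, rpoa-12 and rpoa-49, had no reproducible summit, with pooled signals of 41.4, 25.9 and 44.6 and none for the last. With 4 genes the interval reaches 60.2%. In all, 16 of the 36 listed genes found in the annotation were bound (44.4%), against 8.6% of all genes.

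The members were spread over all 6 nuclear chromosomes, and bound members were found on each. On chromosome I 19 of 25 were bound (all genes 12.1%), on II 8 of 10 (8.47%), on III 16 of 18 (12.1%), on IV 14 of 18 (8.29%), on V 6 of 8 (5.77%) and on X 1 of 2 (7.29%).

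Short motifs of known factors were not more common at the members' summits. Within 100 bp of the summit, on either strand, AGGTCA, the hexamer that many nuclear receptors recognise, occurred in 1 of 61 member peaks (1.64%) and in 5.02% of 1216 other promoter peaks. In the 250 bp upstream to 50 bp downstream of the start it occurred in 7.41% of members and in 8.27% of all genes. GATAAG was in 0 member peaks (others 5.26%), CACGTG in 3.28% (4.85%), GGGCGG in 8.2% (10.5%) and CGCGCG in 6.56% (9.95%). GAGAGA was in 21.3% (37.3%), TATAAA in 6.56% (14.4%), TTTTTTTT in 11.5% (13.1%) and TTTCTC in 47.5% (47.5%). CTACAATTC was in 0 (0.164%). No match says only that these letters are not in the window. The median GC content was 41.3% at member summits and 41.8% at the others.

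Other words did recur, and they were picked from these same windows, so their shares at the members are a description. All words of 8 letters with at least 3 G or C and found in at least 10 member peaks were ranked by the difference in share, and the first 3 that share no run of 5 letters were taken. GGCCTAAA was in 18 of 61 member peaks (29.5%) and in 9 of 1216 other promoter peaks (0.74%). GCGAGACC was in 19 (31.1%, others 6%) and CGATTTAC in 14 (23.0%, others 2.8%). At least 1 of them was in 37 of 61 member peaks (60.7%), against 8.63% of the others. In the 600 bp upstream of the start, GGCCTAAA was in 23 of 81 members (28.4%) and in 1.96% of all genes. GCGAGACC was in 24 (29.6%, all genes 2.76%) and CGATTTAC in 17 (21.0%, all genes 2.7%).

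The words had different places. A copy upstream of a pair of members that share a peak is left out of these positions, since it has no single gene strand (1 copy each of GCGAGACC and CGATTTAC). Of the 18 other copies of GCGAGACC upstream of bound members, 17 lay within 50 bp of the summit, and 14 stood on the strand opposite to the gene, so that the gene's strand read GGTCTCGC. GGCCTAAA lay on the gene side of the summit in 21 of 22 copies, with a median of 60.5 bp from it, and 16 copies were on the gene's strand. CGATTTAC had a median position of -41.5 bp from the summit, the upstream side, over 14 copies, 7 on each strand. Copies at peaks shared with a gene that is not a member were kept, with strand and side given relative to the member. In all, 44 bound members shared their peak with a promoter on the other strand. Copies at such peaks have no single gene strand either. The printed rpl-21 and rps-4 windows show GGTCTCGC upstream of the GGCCTAAA word. In the rps-8 window, which took no part in the choice of words, GGTCTCGC and TTTAGGCC stand in the same order. Among all 17 members without a reproducible summit, 4 held GCGAGACC, 3 GGCCTAAA and 2 CGATTTAC in the 600 bp upstream. Which protein reads these letters was not tested.

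Other ways of joining peaks to genes changed the count little, with 1 exception. A window of 500 bp upstream to 100 bp downstream kept 61 members (all genes 6.87%) and lost rpl-43, rps-18 and rps-27. One of 2000 to 500 bp gave 68 (all genes 11.4%) and added rla-1, rpl-16, rpl-19 and rps-16. Any transcript start, or any overlap of the peak, gave 65 (all genes 9.21% and 9.27%) by adding rpl-19. The 1143 strongest reproducible peaks reached 57 (all genes 4.69%). With each peak given only to the nearest start, 37 members remained (24 large, 13 small, all genes 6.22%), since for 27 the peak went to the start of another gene.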

How the data were processed

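Peaks were called by the authors on ce11 alignments against a control, per the deposited notes, as a relaxed list for each replicate and for the pooled replicates and as an IDR-thresholded reproducible set. The deposited signal of each peak is the authors' height against the control, on a scale not given in the sources used here, as are the aligner, the peak caller and the IDR threshold. The ce10 lists were not used here, for lack of a ce10 annotation. Positions were compared with the WBcel235 RefSeq sequence and the Ensembl release 115 annotation with Python 3.11.15, pandas 2.3.3 and SciPy 1.17.1. For each gene the strongest peak in the window was taken, and ties in signal were broken by the q value. Shares have exact (Clopper-Pearson) 95% intervals. No sample-level test is possible with 1 group, and peak lists without counts give no depth. The assignment was tested on simulated data.

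The labels number the samples as biological replicates. The members, gene lists, motifs and alternatives were chosen with earlier results of these data known. Named in full are the 8 strongest and the 3 weakest bound members, all unbound members, the rla genes and the genes paired by name. So are pairs that share a peak and the 3 bound members with the largest change in rank between replicates. The rule set no limit to bound members there, and over all members with a summit in both replicates those 3 are rpl-25.1, rla-0 and rps-25, named among the unbound. Others are named as examples. The 8-letter words, the 200 bp gap and the distance band were chosen after the data were seen.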

Additional observations from a re-analysis of the deposited data

How the results depend on the processing

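No paired analysis was possible because there is 1 group and no second condition. The count of bound members was within 1.5 times of 64 under all alternatives but nearest start only, where it was 37 (24 large-subunit and 13 small-subunit genes). Leaving out a replicate gave 65 members in both cases, 38 to 39 large-subunit and 26 to 27 small-subunit genes, 45 to 48 members with a shared peak, a median distance of -293 to -283 bp and a median rank at 17.5 to 21.4% of the list. That rank was 16.4% in the reproducible set. It was 29.2% among the 1143 strongest peaks and 4.08% in the whole pooled list, since those lists differ in length. The median distance was -293 bp as reported, -285 bp with the 1143 strongest peaks and with the pooled list, -307 bp with any transcript start and -273 bp with nearest starts only. These shifts in median distance exceed the 7.07 bp SD between replicates, and no direction changed. The number of bound members with a shared peak moved with the window. It was 38 of 61 with 500 bp upstream to 100 bp downstream, and 58 of 68 with 2000 to 500 bp. Nearest starts only gives no value for shared peaks, since each peak then has 1 gene. The share of members reached by both replicates was 88.4% with equal list lengths and 92.4% with the full lists. For the full lists the share of all genes is not given here. With a gap of 500 bp, an alternative chosen after seeing the data, 9 members had a close same-strand neighbour and 1 of them was bound, against 0 of 5. Depth limits which weak summits can be told from background, and it is unknown here.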
